A study of Homo sapiens with 12 samples.

Results

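The genes of cholesterol and fatty acid synthesis were examined for peaks of acetylated RNA in HaCaT, a human keratinocyte cell line. The group holds 38 genes, found in the lists by name: 19 of the sterol branch, 1 of sterol transfer, 10 of the fatty acid branch, 3 of fatty acid activation and 5 regulators. Of these, 31 had a peak in at least 1 list, out of 10870 genes with a peak in the whole series. In the study, cells received NAT10 overexpression plasmids or an empty vector, with 3 replicates of each. NAT10 is the acetyltransferase that makes N4-acetylcytidine (ac4C) in RNA. RNA carrying ac4C was pulled down and sequenced (IP) beside the starting RNA (input), and each replicate gave 1 list of peaks on mRNA. The labels name neither a promoter for the construct nor a clone, and do not say whether replicates were separate cultures, so the spread between them may be technical.

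Cholesterol is built from acetyl-CoA through mevalonate, isoprenoids and squalene to lanosterol, which is then trimmed and rearranged. Fatty acids are built from the same acetyl-CoA, lengthened by elongases and unsaturated by desaturases. Both branches are switched on by the SREBP transcription factors, which SCAP carries out of the endoplasmic reticulum when sterols are low and INSIG proteins hold back when sterols are high. In epidermis both branches matter, since the lipid barrier of the outer skin is made of cholesterol, fatty acids and ceramides.

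The lists differed in length, at 12157, 12119 and 3105 peaks in overexpression replicates 1, 2 and 3, and 4324, 19261 and 10838 peaks in control replicates 1, 2 and 3. Read depth is unknown, because the lists hold no read counts. A gene without a peak is therefore a gene not listed, and its RNA level cannot be told apart from its acetylation here, nor fewer expressing cells from less RNA per cell. NAT10 itself had 14, 14 and 15 peaks in overexpression lists and 1, 2 and 2 in control lists. Peaks were listed on 10 of 10 keratinocyte marker genes, 3 of 6 melanocyte, 2 of 6 fibroblast, 5 of 8 adipocyte and sebocyte and 1 of 6 immune marker genes. Keratinocyte markers ranged from 2 peaks in all, on KRT14 and CDH1, to 23, on ITGB4. No marker of the last 4 cell types had more than 2 peaks in all, so the ranges met. TYR, MLANA, COL1A2, DCN, ADIPOQ, PLIN1, PTPRC and CD3E had none. Summed over a whole marker list, peaks per library were 0 to 2 in overexpression and 0 or 1 in control lists for every one of these 4 types, and their part in the results was not tested.

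A pair of gene starts carried peaks in more than 1 list at overlapping positions, and their sequences are shown because no other member with a RefSeq window had peaks of more than 1 list on the same bases around its start. Both windows run from 250 bases before the RefSeq start to 30 bases after it, 5′ to 3′ on the strand of the gene, from RefSeq on GRCh38.p14, and capitals mark the bases that a peak covered. AACS lies at chr12:125065185-125065464 on the plus strand and had the peak in 4 lists. SREBF1 lies at chr17:17836957-17837236 on the minus strand and had it in 2 control lists.
AACS: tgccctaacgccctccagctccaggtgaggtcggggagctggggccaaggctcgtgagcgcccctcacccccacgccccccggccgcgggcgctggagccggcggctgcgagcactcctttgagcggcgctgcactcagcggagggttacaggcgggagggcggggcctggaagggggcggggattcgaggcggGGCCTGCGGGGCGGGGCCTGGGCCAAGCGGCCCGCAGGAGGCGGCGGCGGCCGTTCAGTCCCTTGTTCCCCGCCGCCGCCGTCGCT
SREBF1: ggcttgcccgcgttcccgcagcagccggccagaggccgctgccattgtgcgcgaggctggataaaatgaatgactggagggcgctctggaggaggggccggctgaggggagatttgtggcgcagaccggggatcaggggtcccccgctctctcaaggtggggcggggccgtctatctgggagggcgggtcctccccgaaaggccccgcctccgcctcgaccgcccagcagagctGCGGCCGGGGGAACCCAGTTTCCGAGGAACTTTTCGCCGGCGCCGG

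The capitals hold 86 bases in AACS and 46 in SREBF1, and each peak ran on into the gene beyond the printed window. In SREBF1, only the peak of control replicate 3 crossed the start, and that of control replicate 2 began inside the gene. The windows were 77.1% and 70.4% G or C. CNN repeated 4 times in a row is a pattern that has been reported at ac4C sites. It was searched on the transcribed strand in the first 50 transcribed bases of each window. It was found in AACS and SREBF1, in 12 of 34 member genes with a window, and in 26.0% of 27305 RefSeq windows. A window need not sit at the end of the gene span. PMVK and ACACB each had a peak of 1 list in the window, though none lay nearer than 5667 and 43520 bases to the start of the span. TCACCCCAC, from the sterol response element where SREBP proteins bind, was searched on either strand in the whole 300 base window. It was found in 1 of the 34 members, SREBF2, and in 0.425% of all windows. CCAAT, the NF-Y box on either strand, was found in 20 of 34 members and 35.7% of all windows. A match is a string of letters and not a measured site. ACAT2, FDFT1, SQLE and FASN had no window in the table.

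Over the 38 genes, the number with a peak differed between groups by less than the spread between replicates. A peak was listed on 17, 16 and 6 of them in overexpression replicates 1, 2 and 3, and on 7, 27 and 18 in control replicates 1, 2 and 3. The means were 13 ± 6.08 genes in overexpression and 17.3 ± 10 genes in control lists (SD, n = 3 per group), and the groups overlapped. The difference of −4.33 genes moved with single lists in both directions. Leaving out control replicate 2 gave 0.5 and leaving out overexpression replicate 3 gave −0.833. Leaving out control replicate 1 gave −9.50 and leaving out overexpression replicate 1 gave −6.33. The longest list held the most members and the shortest list of each group held the fewest of its group. Set against all genes with a peak in the same list, the 38 genes made up 0.293%, 0.269% and 0.260% in overexpression and 0.223%, 0.341% and 0.302% in control lists. Per 10000 peaks of a list, their peaks numbered 39.5, 30.5 and 35.4 in overexpression and 27.8, 38.4 and 28.6 in control lists. The group ranges overlapped on both scales in the lists as deposited. The 3105 highest scores were then kept from each list. The number of peaks on the 38 genes was 14, 10 and 11 in overexpression and 7, 8 and 7 in control replicates 1, 2 and 3, with no overlap. The genes with a peak still overlapped there, at 9, 6 and 6 in overexpression and 5, 8 and 6 in control lists. This setting cut the lists at unequal scores. The lowest score kept was 69.2 in control replicate 1 and 436 in control replicate 2, and overexpression replicate 3 was kept whole. Single genes also weighed on the peak numbers. ACLY had 4 of the 14 peaks in overexpression replicate 1, and PMVK 4 of the 11 in overexpression replicate 3. The most on any member in a control list was 2, as on ACSL1. Whether the separation reflects overexpression was not tested. In all, the 38 genes had 213 of the 61804 peaks, and 129 of the 213 lay on the 7 genes LSS, ACSL1, ACACA, ACLY, SREBF2, AACS and MVK.

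**Figure D1:**
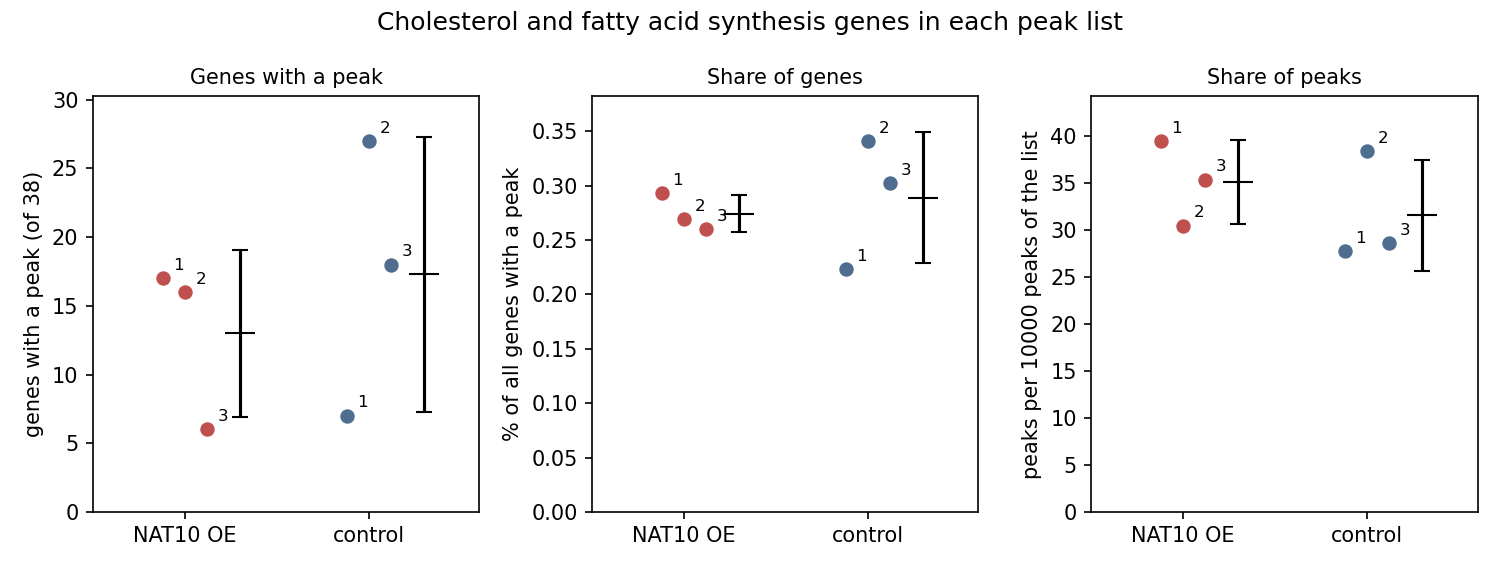
Each point is 1 peak list, labelled with its replicate number. The panels show the number of the 38 genes with a peak, these genes as a percentage of all genes with a peak in the list, and their peaks per 10000 peaks of the list, and black bars are the mean and SD of 3 lists. The groups overlap in all 3 panels, at 6 to 17 genes in overexpression and 7 to 27 in control lists.

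Gene by gene, 6 of the 31 genes with a peak (19.4%) leaned to overexpression, with more lists there, against 25.6% of all 10870 genes with a peak. Another 15 (48.4%) leaned to control, against 46.3%, and 10 (32.3%) were even, against 28.1%. The shares of the 31 genes lay near those of all genes. A peak in all 6 lists was found for AACS, PMVK, ACSL1 and SCAP (12.9%, against 6.23% of all genes), in at least 4 lists for 12 genes (38.7%, against 35.3%) and in 1 list for 11 genes (35.5%, against 28.6%). The median difference in lists, overexpression minus control, was 0 for the members and 0 for all genes. The counts moved with single lists. Counted by share of lists, 12 leaned to overexpression and 8 to control without control replicate 2. Those leaning to overexpression numbered 12 without overexpression replicate 3 and 11 without control replicate 3. Of the 15 genes that leaned to control, 7 had peaks only in control replicate 2, the longest list: ACAT2, FDFT1, NSDHL, DHCR7, STARD4, ELOVL6 and INSIG2.

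The number of peaks per gene was tested by exact permutation of the list labels, two-sided, with 20 ways to split 6 lists and Benjamini-Hochberg adjustment over all 10870 genes. The smallest p this design allows is 0.1, so 0 genes could pass 0.05 before or after adjustment, among members or elsewhere. Peak numbers that did not overlap between groups were found for 1 member, EBP, higher in control. Over all genes 1.39% did so with higher control and 0.386% with higher overexpression numbers.

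**Figure D2:**
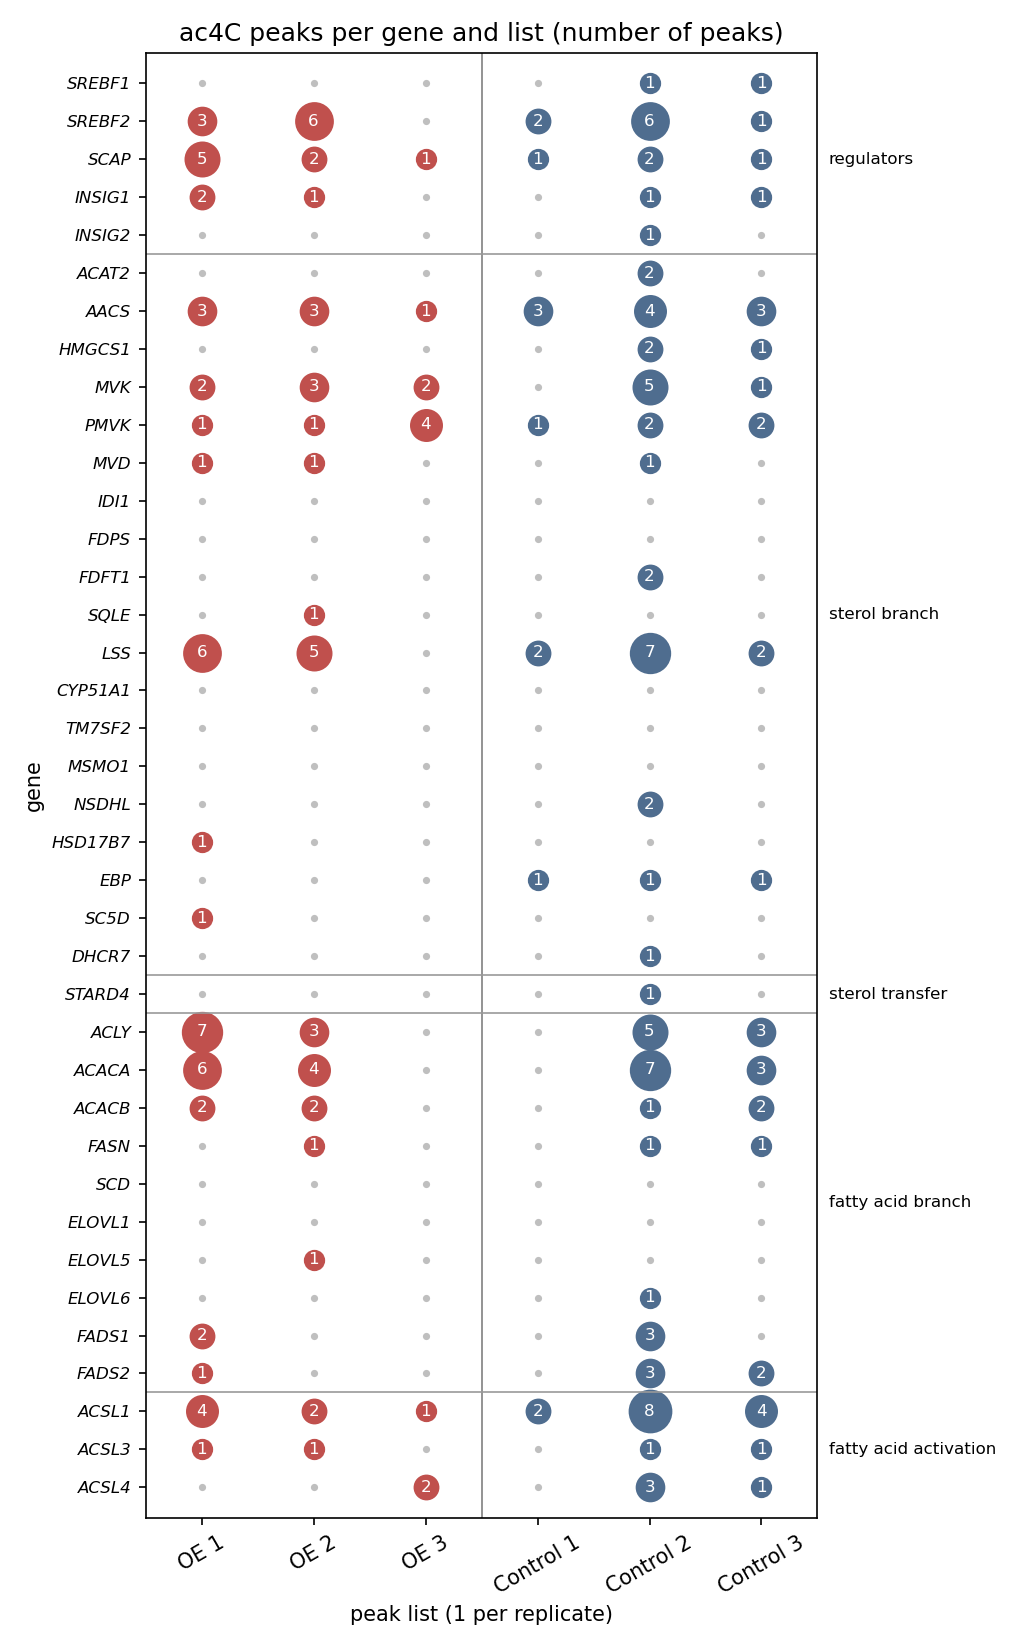
Rows are the 38 genes by role and columns the 6 lists, overexpression (OE) left of control. A disc gives the number of peaks, and a grey dot means that none was listed. Discs are fewest in OE replicate 3 and control replicate 1, on 6 and 7 genes, and most numerous in control replicate 2, on 27.

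Each regulator of the pathway had a peak in at least 1 list. SREBF2, which encodes the SREBP protein that drives sterol genes above all, had 3, 6 and 0 peaks in overexpression and 2, 6 and 1 in control replicates 1, 2 and 3. The means were equal (exact permutation p = 1.0), and with 1 list left out the difference ranged from −1.5 to 1.5 peaks. SCAP, the escort of SREBP proteins, had 5, 2 and 1 peaks in overexpression and 1, 2 and 1 in control lists, and was listed in all 6. The SCAP ranges overlapped (mean difference 1.33 peaks, exact permutation p = 0.7). The SCAP difference was 0.167 without overexpression replicate 1 and 2.17 without overexpression replicate 3. INSIG1, which retains SCAP in the endoplasmic reticulum, had 2, 1 and 0 peaks in overexpression and 0, 1 and 1 in control lists, so that neither shortest list held it. SREBF1, whose products drive fatty acid genes, had 0, 0 and 0 peaks in overexpression and 0, 1 and 1 in control lists (exact permutation p = 0.4). INSIG2 had 1 peak, in control replicate 2. Of the 5 regulators, 0 leaned to overexpression, 3 leaned to control and 2 were even. Over all genes with a peak these shares were 25.6%, 46.3% and 28.1%. A peak was listed on 3, 3 and 1 of the regulators in overexpression lists, against 2, 5 and 4 in control lists.

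The regulators had 22 peak positions, of which 7 were in more than 1 list and 15 in a single list (68.2%, against 67.5% of all positions). On SREBF2, a peak of 169 bases on chromosome 22 from 41893117 to 41893285 (GRCh38) had the same ends in 5 lists, absent only from overexpression replicate 3. The authors' fold enrichment there, each list's own value, was 4.55 and 7.20 in overexpression replicates 1 and 2 and 3.77, 7.17 and 4.49 in control replicates 1, 2 and 3. A neighbouring peak from 41894820 to 41894937 was in 4 lists. By contrast, a peak of 450 bases from 41866831 to 41867280 was in overexpression replicates 1 and 2 only, with folds of 4.61 and 7.81. On SCAP the peak from 47417304 to 47417826 on chromosome 3 was in 2 lists of each group. INSIG1 had a peak of 439 bases on chromosome 7 from 155298259 to 155298697, which begins 381 bases after the gene start and was also in 2 lists of each group, with folds of 5.24 and 8.16 in overexpression and 6.88 and 6.95 in control lists. It overlaps the noncoding gene INSIG1-DT in RefSeq, and the lists give no strand. The SREBF1 peak ran from 17836727 to 17836983 in control replicate 2 and to 17837002 in control replicate 3 on chromosome 17, with folds of 7.79 and 12.1. In control replicate 3 it reached 16 bases upstream of the RefSeq start. It is the interval marked in the SREBF1 sequence.

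Of the 5 positions in the sterol branch that were in at least 4 lists, 4 were on the early enzymes AACS, MVK and PMVK, and the other was on LSS. AACS, which makes acetoacetyl-CoA from ketone bodies, had 3, 3 and 1 peaks in overexpression and 3, 4 and 3 in control lists. PMVK, which adds the second phosphate to mevalonate, had 1, 1 and 4 peaks in overexpression and 1, 2 and 2 in control lists. Both were listed in all 6 lists. MVK, the mevalonate kinase, had 2, 3 and 2 peaks in overexpression and 0, 5 and 1 in control lists. MVD, which decarboxylates the product to the first isoprenoid, had 1, 1 and 0 in overexpression and 0, 1 and 0 in control lists. These ranges overlapped between groups, with exact permutation p of 0.6 for AACS and 1.0 for the other 3. HMGCS1, the synthase that precedes mevalonate, had 0, 0 and 0 peaks in overexpression and 0, 2 and 1 in control lists (exact permutation p = 0.4), so control replicate 1 matched the overexpression lists. Its peaks in control replicates 2 and 3 did not overlap. ACAT2, the cytosolic thiolase, had 2 peaks, both in control replicate 2. The stronger, with a fold of 14.7, lies outside the RefSeq span of ACAT2 and within that of SOD2.

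Among these enzymes AACS, MVK, PMVK and MVD shared positions across groups. The MVK peak from 109581395 to 109581550 on chromosome 12 kept its ends in overexpression replicates 1, 2 and 3 and in control replicates 2 and 3. Its folds were 6.74, 8.91 and 9.80 in overexpression lists and 7.97 and 6.49 in control replicates 2 and 3. No other position on the members was in all 3 overexpression lists. The PMVK peak from 154926354 to 154926483 on chromosome 1 was in all 3 control lists and in overexpression replicate 3. Overexpression replicate 3, the shortest list, held 4 PMVK peaks, the highest number of that gene in any list. Of its 11 member peaks, 8 (72.7%) were at a position found in another list, against 53.5% of all peaks of that list. On AACS the first peak, from 125065379 to 125065717, begins 56 bases before the RefSeq start, had the same ends in 2 lists of each group and is the interval marked in the sequence. Its folds were 3.57 and 12.5 in overexpression and 6.46 and 9.59 in control lists. A noncoding gene, LOC105370052, overlaps this place in RefSeq.

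The middle and late sterol steps were sparse, apart from LSS and EBP. IDI1 and FDPS, which rearrange and join isoprenoid units, had no peak. FDFT1, the squalene synthase, had 2 peaks in control replicate 2, and SQLE, the squalene epoxidase, 1 peak in overexpression replicate 2. LSS, which folds the epoxide into lanosterol, had the most peaks of any member, 22, at 6, 5 and 0 in overexpression and 2, 7 and 2 in control lists. The LSS means were equal, and the only empty list was the shortest. With 1 list left out the LSS difference ranged from −1.17 to 1.83 peaks. Its peak from 46205836 to 46205941 on chromosome 21 was in 2 lists of each group, with folds of 6.24 and 6.45 in overexpression and 4.68 and 17.7 in control lists. Of the 8 enzymes after lanosterol, CYP51A1, TM7SF2 and MSMO1 had no peak. NSDHL and DHCR7 were listed only in control replicate 2, and HSD17B7 and SC5D only in overexpression replicate 1.

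EBP, the isomerase that moves a double bond in the sterol ring, was the only member with a peak in all lists of a single group. It had 0, 0 and 0 peaks in overexpression and 1, 1 and 1 in control lists (exact permutation p = 0.1, the smallest possible, adjusted p = 1.0). Over all genes with a peak, 1.09% had it in 3 control and 0 overexpression lists and 0.267% the reverse, so 1 such gene among 31 (3.23%) rests on a single case. The peak was the same 483 bases in each control list, on chromosome X from 48528234 to 48528716, and its last base is the last base of the RefSeq gene. Over all 38634 positions, 0.575% were in 3 control lists and 0 overexpression lists, and 0.163% the reverse. Its folds of 4.20, 5.28 and 6.42 in control replicates 1, 2 and 3 were below the medians of those lists, at 7.22, 6.82 and 6.59. With the 3105 highest scores kept from each list, the peak stayed in control replicates 1 and 3 and dropped out of control replicate 2.

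**Figure D3:**
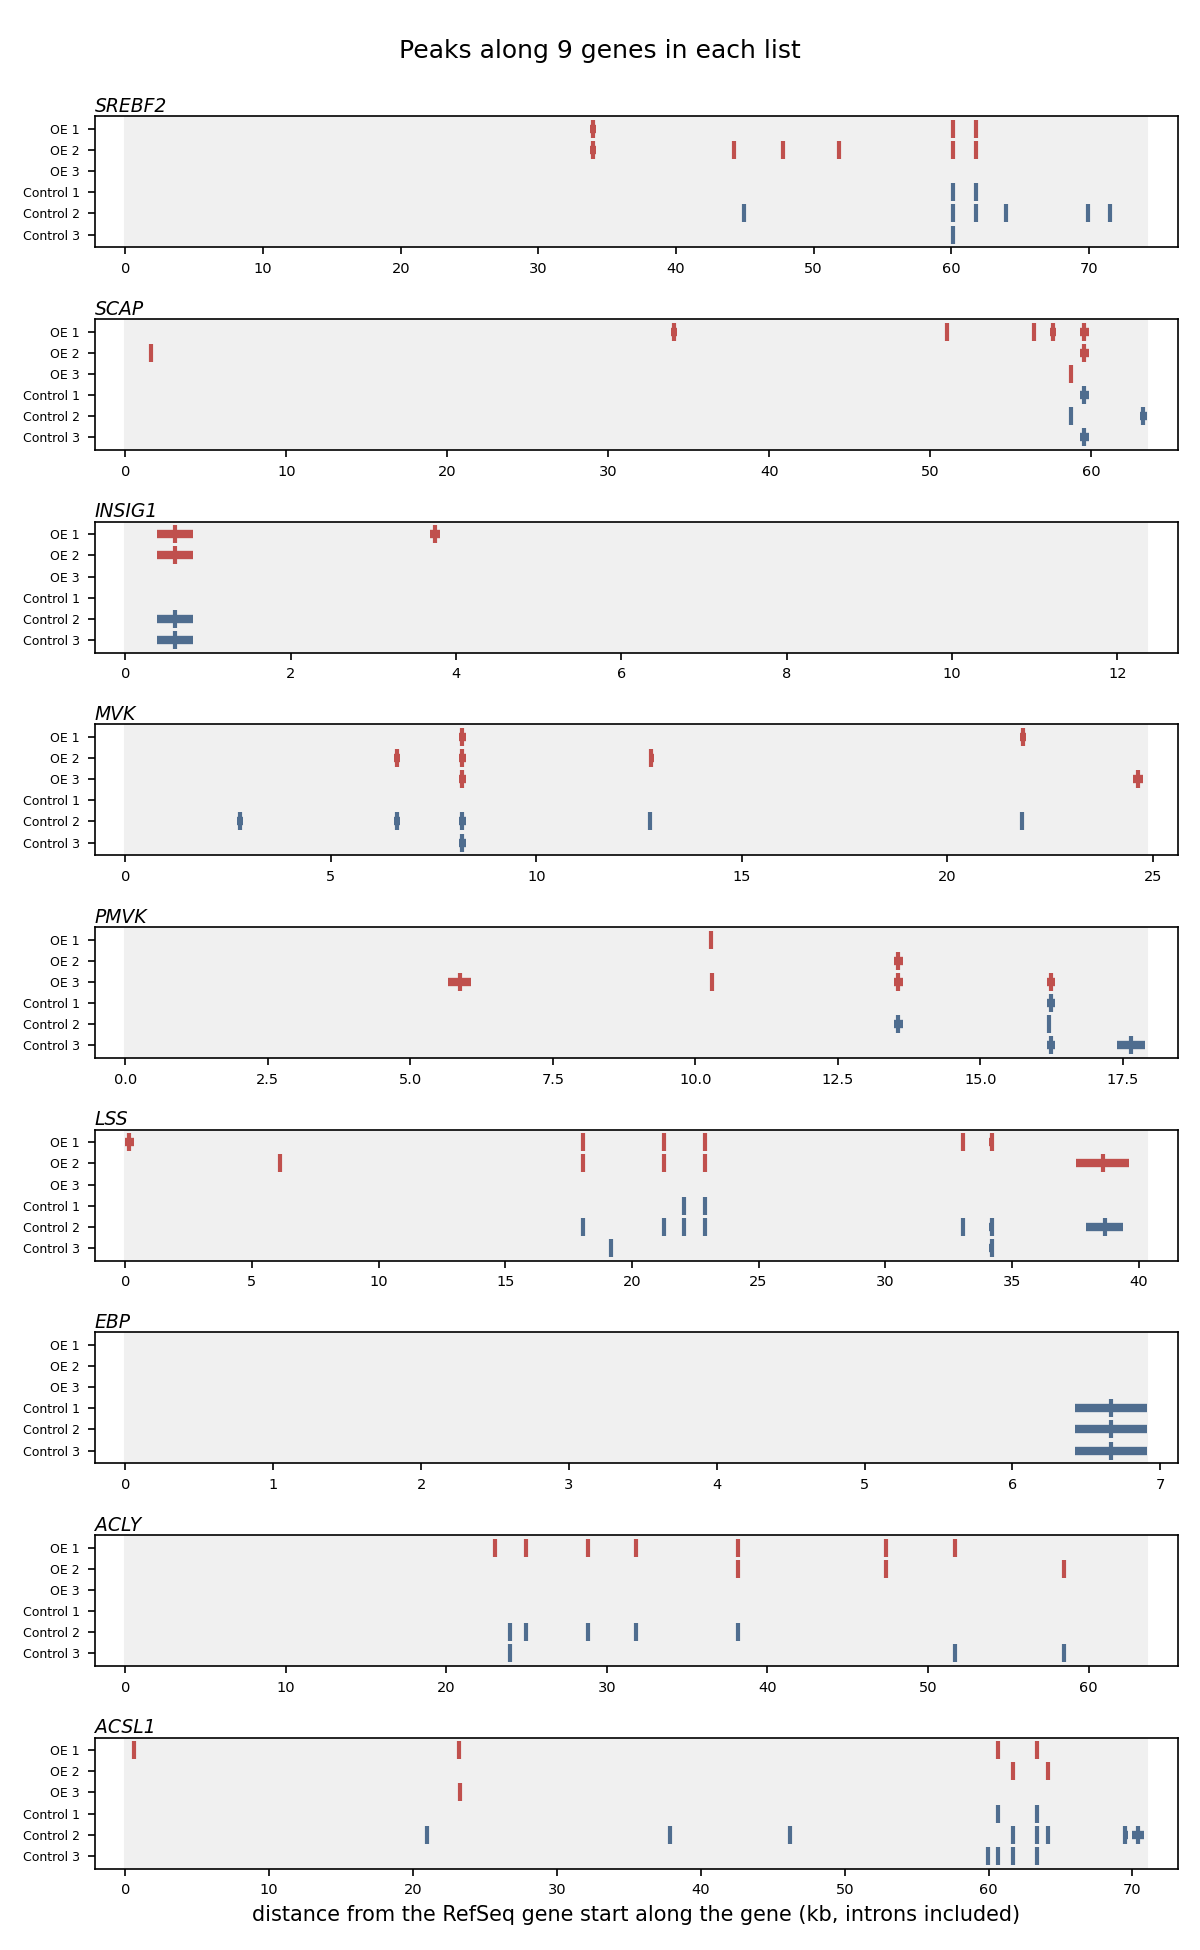
Peaks along 9 genes, with 1 row per list and the RefSeq span in grey. The horizontal axis is the distance from the gene start in kb, introns included. Vertical ticks of fixed height mark the middle of each peak and thick bars its length. Marks that line up across rows are shared positions, as on SREBF2 near 60.0 kb and MVK near 8.1 kb, while the EBP marks are in the control rows only.

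In the fatty acid branch, the enzymes that supply and build the chain had 48 of the branch's 61 peaks, and the 6 elongases and desaturases had 13. ACLY, which makes cytosolic acetyl-CoA from citrate, had 7, 3 and 0 peaks in overexpression and 0, 5 and 3 in control lists. ACACA, the acetyl-CoA carboxylase of fatty acid synthesis, had 6, 4 and 0 in overexpression and 0, 7 and 3 in control lists. Its relative ACACB, found at mitochondria, had 2, 2 and 0 in overexpression and 0, 1 and 2 in control lists. FASN, the fatty acid synthase, had 0, 1 and 0 peaks in overexpression and 0, 1 and 1 in control lists. All 4 genes were absent from overexpression replicate 3 and control replicate 1, the shortest lists, and each had an exact permutation p of 1.0. The ACACA means were equal, with a difference of −1.67 without control replicate 1 and 1.83 without control replicate 2. The highest fold on any member was 26.0, on ACACB in control replicate 2, at chromosome 12 from 109154709 to 109154936. That ACACB interval was in no other list, and none of the 7 ACACB peaks overlapped another.

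On ACLY 8 of 9 positions were in more than 1 list, and on ACACA 3 of 16. The ACLY interval 41892279 to 41892447 on chromosome 17 was in overexpression replicates 1 and 2 and control replicate 2, with folds of 6.77, 6.22 and 4.32. On ACACA, 37113088 to 37113265 on the same chromosome was in overexpression replicate 2 and control replicates 2 and 3, with folds of 7.44, 6.49 and 4.74. FADS1 and FADS2, neighbouring desaturases of polyunsaturated fatty acids, had 2, 0 and 0 and 1, 0 and 0 peaks in overexpression lists, against 0, 3 and 0 and 0, 3 and 2 in control lists. For FADS2 the exact permutation p was 0.4. A FADS1 peak of control replicate 2 from 61829283 to 61829318 on chromosome 11 lies within the RefSeq span of FADS2 and outside that of FADS1, so its gene is uncertain. The elongase genes ELOVL5 and ELOVL6 had 1 peak each, in overexpression replicate 2 and control replicate 2, and ELOVL1 none. SCD, the desaturase that makes oleate, had no peak either. Of the 10 genes of this branch 8 had a peak, of which 1 leaned to overexpression, 3 to control and 4 were even. The sterol branch had 14 of 19 with a peak, of which 5 leaned to overexpression, 7 to control and 2 were even. Over all genes with a peak, 25.6% leaned to overexpression, 46.3% to control and 28.1% were even.

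By list, the sterol branch had 7, 6 and 3 genes with a peak in overexpression and 4, 11 and 6 in control lists, or 5.33 ± 2.08 and 7 ± 3.61 genes (SD, n = 3 per group). The fatty acid branch had 5, 5 and 0 in overexpression and 0, 7 and 5 in control lists, or 3.33 ± 2.89 and 4 ± 3.61 genes (SD, n = 3 per group). In both branches the groups overlapped. The shortest list of each group held 3 and 4 of the 19 sterol branch genes and none of the 10 of the fatty acid branch. Of all 10870 genes with a peak, these lists held 2306 and 3137. Other genes of fatty acid metabolism were in these lists. Fatty acid activation had 2 genes in overexpression replicate 3 and 1 in control replicate 1. The 29 other fatty acid genes described below had 5 and 6, and the 18 other sterol genes 3 and 2. Without control replicate 2 and overexpression replicate 3 together, the sterol branch difference turned to 1.5 genes and the fatty acid branch difference to 2.5 genes, both higher in overexpression lists. The fatty acid difference also turned with 1 list left out, to 1.0 without overexpression replicate 3 and 0.833 without control replicate 2, and the sterol difference to 0.333 without control replicate 2.

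Fatty acids enter further metabolism once they are joined to coenzyme A, and the 3 members that act in this step were all listed. ACSL1 had 4, 2 and 1 peaks in overexpression and 2, 8 and 4 in control lists and was listed in all 6 (mean difference −2.33 peaks, exact permutation p = 0.5). Leaving out control replicate 2 gave −0.667 for ACSL1, leaving out control replicate 1 gave −3.67, and leaving out control replicate 2 with overexpression replicate 3 gave 0. Its peak near 184763167 to 184763255 on chromosome 4 was in all 3 control lists and in overexpression replicate 1. The folds there were 7.54 in overexpression replicate 1 and 7.72, 11.1 and 13.5 in control replicates 1, 2 and 3. ACSL3 had 1, 1 and 0 peaks in overexpression and 0, 1 and 1 in control lists, each at a different position. ACSL4, which prefers arachidonate, had 0, 0 and 2 in overexpression and 0, 3 and 1 in control lists, and both peaks of overexpression replicate 3 overlapped peaks of control replicate 2. STARD4, which carries cholesterol between membranes, had 1 peak, in control replicate 2.

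Peaks that overlapped by at least 1 base on the same gene were taken as 1 position. The members had 133 positions, of which 36 were in both groups (27.1%), 41 in overexpression lists only (30.8%) and 56 in control lists only (42.1%). Over all 38634 positions these shares were 25.0%, 31.2% and 43.9%. Positions in at least 4 lists numbered 10 on members (7.52%), against 7.47% over all positions, and 86 were in 1 list only (64.7%), against 67.5%. No member position was in all 6 lists, although 4 genes had peaks in all 6. Where a position was in more than 1 list, both ends were equal in every one for 31 of 47 (66.0%), against 44.8% over all positions. Of 205 member peaks with a known gene start, 18 lay within 1000 bases of it, or 8.78%, against 18.8% of the peaks of all genes. The gene start was taken as the 5′ end of the RefSeq span, which need not match the start in the sequence window. Peaks of a single gene are not independent, so these shares are descriptions with no test. The Spearman rho was 0.55 between RefSeq span and total peaks over the 38 members and 0.33 over 10464 genes with a peak. These sets are unlike, because the 38 include the 7 members without a peak, and the 10464 leave such genes out. The 31 members with a peak had a median span of 25.9 kb and the 7 without 15.5 kb.

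**Figure D4:**
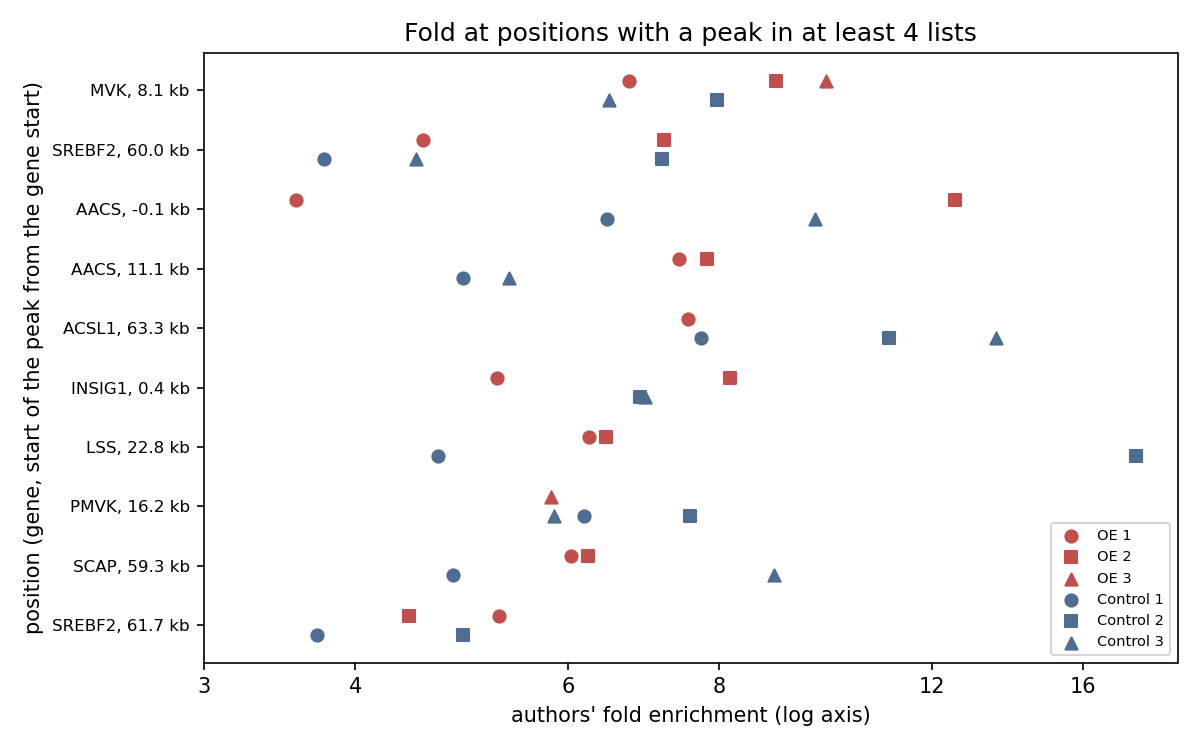
Rows are the 10 positions with a peak in at least 4 lists, named by gene and distance from the gene start in kb, with overexpression (OE, red) above control (blue). The horizontal log axis is the authors' fold enrichment, which is each list's own value. Apart from LSS in control replicate 2, at 17.7, the folds lie between 3.57 and 13.5.

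The median fold over member peaks was 5.46, 5.91 and 6.68 in overexpression and 4.87, 5.30 and 6.01 in control lists. Over all peaks of these lists it was 6.30, 6.39 and 7.20 in overexpression and 7.22, 6.82 and 6.59 in control lists, higher than the member median in each of the 6. The highest member folds after ACACB were on ACSL1 with 20.3 in control replicate 3, and on FADS1, FADS2 and LSS with 18.1, 17.9 and 17.7 in control replicate 2. In overexpression lists the highest was 16.9, on MVK in replicate 3, at a position found in no other list. The authors' false discovery rate, read as percent, was 29.36 or higher for every member peak and 100 for each one in overexpression replicate 3 and control replicate 1. Whole lists were alike, with 29.28 as the lowest rate over all peaks and 100 for every peak of those 2 lists.

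Further genes of both pathways were taken from lists that hold no member. The 18 other sterol genes include some that process SREBP and some that sense, transport or esterify sterols. Of the 18, 14 had a peak, of which 3 leaned to overexpression, 5 to control and 6 were even. Of 29 other fatty acid genes, 20 had a peak, of which 3 leaned to overexpression, 9 to control and 8 were even. Those that differed by at least 2 lists were ME1, the malic enzyme that supplies NADPH, in 1 overexpression and 3 control lists, and CPT2, of fatty acid import into mitochondria, in 0 and 2. Among the members HMGCS1 and SREBF1 differed by 2 lists and EBP by 3, all toward control, and no member differed by 2 or more toward overexpression. Over all genes with a peak, 9.48% differed by at least 2 lists toward control and 3.79% toward overexpression. By any difference in lists, 25.6% of all these genes leaned to overexpression, 46.3% to control and 28.1% were even.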

How the data were processed

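Libraries of immunoprecipitated (IP) and input RNA were made from HaCaT cells, 12 in all. The submitters' processing notes list cutadapt 1.9.3, FastQC, the aligner HISAT2 2.0.4 and GRCh38. The authors deposited 6 peak lists, 1 per replicate. Columns of the lists, per the file headers, hold a score (−10 times log10 of the peak's p-value), a fold enrichment ratio, a false discovery rate (the deposited values run up to 100 and were read as percent) and a length. MACS appears in the peak names, with its version not given here. The lowest deposited score was 50 and the lowest fold 2. In the files used here 3 lines of control replicate 2 and 2 of overexpression replicate 2 were empty.

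Groups and replicate numbers came from the titles. Distinct peak intervals were counted per gene and list by the files' gene names (Python 3.11.15, pandas 2.3.3, scipy 1.17.1), and starts were raised by 1 base. All 38 symbols matched RefSeq GRCh38.p14, from which gene spans and windows were taken. Exon annotation and genome sequence were not used here. The tests were tested on simulated data. All members could be named, and other pathway genes where the groups differed by at least 2 lists. NAT10 and marker genes were named as checks. The members and lists were chosen with earlier results of these data known. The sterol response element was searched in a shortened form, chosen after a longer form had been counted; both were found in SREBF2 and in no other member. Deviations of same-numbered replicates had r of 0.0, −0.066 and −0.065 over 10870 genes. Differently numbered replicates gave −0.005 to 0.068. Numbers were not taken as pairs, though these values cannot show whether same-numbered replicates were prepared together.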

Additional observations from a re-analysis of the deposited data

How the results depend on the processing

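With 3 lists per group the smallest p was 0.1, so no difference in peaks per gene, small or large, could be called. Depth was unknown, and list lengths ran from 3105 to 19261 peaks. Of 124 recomputed values for the members and their groups, 112 stayed within the replicate spread or within 1.5 times the count. These include values that could not move, namely those with the replicate number as a block and the number of genes called. A difference could also change sign and stay within the spread, so the 112 do not measure stability. With the 3105 highest scores of each list, the members' share of genes differed by 0.0525 percentage points and their peaks by 14 per 10000, both higher in overexpression, with no overlap between groups in the number of member peaks, and 4 members were in more control lists. Without control replicate 2 and overexpression replicate 3 together, the differences were 4 member genes, 21.0 member peaks, 1.5 sterol branch genes and 2.5 fatty acid branch genes, and 12 members were in more overexpression and 4 in more control lists. With 1 list left out, the difference in member genes ranged from −9.50 to 0.5, in sterol branch genes from −3.17 to 0.333 and in fatty acid branch genes from −2.67 to 1.0. Members in more overexpression lists ranged from 4 to 12 and in more control lists from 8 to 21. The cause was not tested.

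Among single genes, the mean difference in peaks turned sign for AACS with a score of at least 100 (0.333), for ACSL4 with equal numbers of peaks (0.667) and, without control replicate 2 and overexpression replicate 3 together, for PMVK (−0.500) and FADS1 (1.0). With 1 list left out it ranged from −1.17 to 2.33 for ACLY, −0.167 to 0.833 for INSIG1, −0.667 to 0.833 for PMVK, −0.667 to 1.83 for MVK, −0.167 to 1.0 for ACACB, −1.67 to 1.83 for ACACA, −1.17 to 1.83 for LSS, −1.5 to 1.5 for SREBF2, −1.0 to 0.667 for FADS1 and −1.33 to 0.167 for ACSL4. With the replicate number as a block, the difference in member genes was −4.33 as before, the sign-flip test cannot go below 0.25, and 0 genes were called. Positions in at least 4 lists numbered 9 with an overlap of at least 50% of both peaks, 8 with the same ends and 8 with a fold of at least 4.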
